A study of Mus musculus with 7 samples.

Results

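The 10 genes described here encode the TAM receptor system and other parts of apoptotic cell uptake: the receptors Axl, Mertk and Tyro3, their ligands Gas6 and Pros1, the bridging protein Mfge8, the annexin Anxa1, the uptake receptor Lrp1, and Elmo1 and Dock1 of the engulfment machinery. They were chosen by name, and all 10 were found among the 26143 genes with a symbol in the deposited count table. The table holds 7 RNA sequencing libraries of alveolar macrophages, the phagocytes that live in the airspaces of the lung, sorted from C57BL/6 mice aged 4 months. Wild-type (WT) mice gave 4 libraries, and mice labelled as a knockout of Cish (Cish KO, here KO) gave 3. Cish encodes a brake on cytokine receptors that signal through STAT5. How the Cish allele was made, and whether each library came from 1 mouse, is not stated in the labels. The p-values below therefore measure only the spread between these libraries.

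Apoptotic cells expose phosphatidylserine on their surface. Gas6 and protein S (the product of Pros1) bind this lipid and link it to TAM receptor tyrosine kinases, while Mfge8 links it to integrins. ELMO and DOCK proteins then activate Rac, which reshapes actin around the cell being engulfed. In the lung, clearance of dying cells by alveolar macrophages keeps the airspace free of debris, and TAM receptors also dampen inflammatory signals.

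Total counts lay between 26780291 and 34483612 per library. Levels are given as CPM, the usual scaling of a gene's reads to its library's total, here with totals adjusted by TMM. Reads of Cish stood at 29.6 to 67.9 CPM in WT and 10.9 to 14.3 CPM in KO, so the targeted gene goes the way of the labels, though it kept reads in every KO library (edgeR adjusted p 0.0519, DESeq2 2.81e-11). All 7 alveolar macrophage markers were detected, with summed levels of 20195 to 55661 CPM in WT and 44649 to 78285 CPM in KO, nearly all of it Chil3 (means 29771 and 59845 CPM, with overlap). The markers did not move one way: Siglecf was lower in KO without overlap (means 559 and 420 CPM, adjusted p 0.0950 by edgeR and 0.00323 by DESeq2), and Ear2 averaged 1805 and 1619 CPM with overlap. On the first principal component of all tested genes, WT 4 lay at 7.27, apart from the other WT libraries (-39.4 to -24.1) and nearer to KO (18.3 to 43.9). Some results, such as those for Pros1, Mfge8, Socs3 and Anxa3, are given with and without WT 4. The edgeR quasi-likelihood test, with p adjusted over the 12759 genes tested, called 11 genes (0.0862%) at an adjusted p below 0.05, 0.0470% higher and 0.0392% lower in KO. DESeq2 called 753 of 13198 (5.71%), 2.68% higher and 3.02% lower.

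Of the 10 genes, 9 passed the filter on low counts and were tested; Tyro3 did not. By edgeR 0 of the 9 were called, against a background of 0.0862% (0.0470% higher, 0.0392% lower); 3 had an unadjusted p below 0.05 (Axl, Pros1 and Mfge8), where 18.0% of all tested genes did. DESeq2 called 1, Pros1, lower in KO, where the background was 5.71% in all, 2.68% higher and 3.02% lower. The CPM of the genotypes did not overlap for 4 of the 9, with Mfge8 higher in KO and Axl, Pros1 and Anxa1 lower, where 16.0% of all tested genes did not overlap, 7.23% higher and 8.72% lower. The median log2 fold change of the 9 was 0.03, and that of all tested genes was 0.00. Less RNA of a gene per cell and fewer cells that express it cannot be told apart in bulk libraries such as these.

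The promoters of the 3 genes with an unadjusted p below 0.05 by edgeR are shown as examples. That cutoff, which 18.0% of all tested genes passed, does not mark a difference, and edgeR called none of the 3. Each run is the 250 bases before the RefSeq start (GRCm38.p6, the build also called mm10), written 5′ to 3′ on the gene's own strand, with capitals for matches to GAS or PU.1 core letters on either strand.
Pros1 (chr16:62854057-62854306, plus strand): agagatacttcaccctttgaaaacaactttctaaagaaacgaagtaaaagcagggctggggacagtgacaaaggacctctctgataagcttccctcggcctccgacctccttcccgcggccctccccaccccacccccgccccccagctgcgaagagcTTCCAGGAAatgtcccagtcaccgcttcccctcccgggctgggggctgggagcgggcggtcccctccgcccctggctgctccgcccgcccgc
Axl (chr7:25788734-25788983, minus strand): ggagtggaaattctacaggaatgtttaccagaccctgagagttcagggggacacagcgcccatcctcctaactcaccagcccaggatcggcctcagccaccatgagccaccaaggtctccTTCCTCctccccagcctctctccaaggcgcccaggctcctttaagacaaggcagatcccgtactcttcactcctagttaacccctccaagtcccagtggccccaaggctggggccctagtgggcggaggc
Mfge8 (chr7:79149061-79149310, minus strand): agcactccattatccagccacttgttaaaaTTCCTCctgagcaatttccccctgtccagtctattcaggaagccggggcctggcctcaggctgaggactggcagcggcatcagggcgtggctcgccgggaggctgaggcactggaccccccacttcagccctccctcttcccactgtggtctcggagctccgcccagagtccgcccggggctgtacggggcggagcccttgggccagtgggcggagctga
RefSeq gave such a window for all 10 genes, 11 windows in all since Elmo1 has 2 starts, and 4 motifs were searched on both strands. Matches of the 10 are counted by gene, with either window of Elmo1 counting, while the background shares are of windows. GAS elements, the sites STAT factors bind, were searched as TTCNNNGAA and stood in the windows of 3 genes, namely Pros1 (TTCCAGGAA, 92 to 84 bases before the start), Lrp1 and the second start of Elmo1; 7.02% of all 32851 windows held one. The PU.1 core GAGGAA, part of the site of a myeloid transcription factor, stood in the windows of Axl, Mfge8, Dock1 and Anxa1, and in 23.3% of all windows. The AP-1 site TGANTCA was in 0 of the 10 genes' windows and in 6.75% of all. The GC box GGGCGG, not capitalised above, was in the windows of 9 of the 10 genes and in 32.7% of all. A match describes the letters and does not show that a factor binds there; the only matches that overlapped were adjoining GC boxes in the windows of Pros1 and Dock1.

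The TAM receptors were represented by Axl and Mertk. Axl, a receptor tyrosine kinase that binds Gas6 and is typical of alveolar macrophages (chromosome 7, 25757273 to 25788705, minus strand, GENCODE M21 on mm10), stood at 1872, 2134, 1711 and 1778 CPM in WT 1 to WT 4 and at 1441, 1589.7 and 1657 CPM in KO 1 to KO 3. Every KO library lay below every WT library, with KO 3 only slightly under WT 3. WT averaged 1874 CPM ± 186 (SD, n = 4), and KO averaged 1562 CPM ± 111 (SD, n = 3), 83.4% of WT. This log2 difference of -0.26 (SE 0.10) was not called by edgeR (adjusted p 0.220) or DESeq2 (adjusted p 0.135).

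Mertk, the TAM kinase best known for the uptake of apoptotic cells by macrophages (chromosome 2, 128698956 to 128802894), stood at 189, 244, 198 and 190.4 CPM in WT 1 to WT 4. In KO 1 to KO 3 it stood at 246, 232 and 207 CPM. The genotypes overlapped because WT 2 was nearly as high as the highest KO libraries, while the other 3 WT libraries lay below all KO libraries. WT averaged 205 CPM ± 26.1 (SD, n = 4), KO 228 CPM ± 19.7 (SD, n = 3). The log2 difference of 0.15 (SE 0.11) was not called by edgeR (adjusted p 0.498) or DESeq2 (0.562), and without WT 2 it was 0.25 (edgeR adjusted p 0.283).

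The count of Axl relative to Mertk within a library does not depend on how libraries are scaled. Axl counts were 9.93, 8.75, 8.65 and 9.34 times those of Mertk in WT 1 to WT 4, and 5.86, 6.85 and 7.999 times in KO 1 to KO 3. The lowest WT ratio, in WT 3, was above the highest KO ratio, in KO 3. The ratio averaged 9.17 ± 0.593 (SD, n = 4) across WT; across KO it averaged 6.90 ± 1.07 (SD, n = 3), a difference of -0.42 in mean log2 ratio with a p of 0.0571 (2-sided exact permutation test over libraries, n = 4 and 3). That is the smallest p this design can give, so the test could not pass 0.05.

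**Figure D1:**
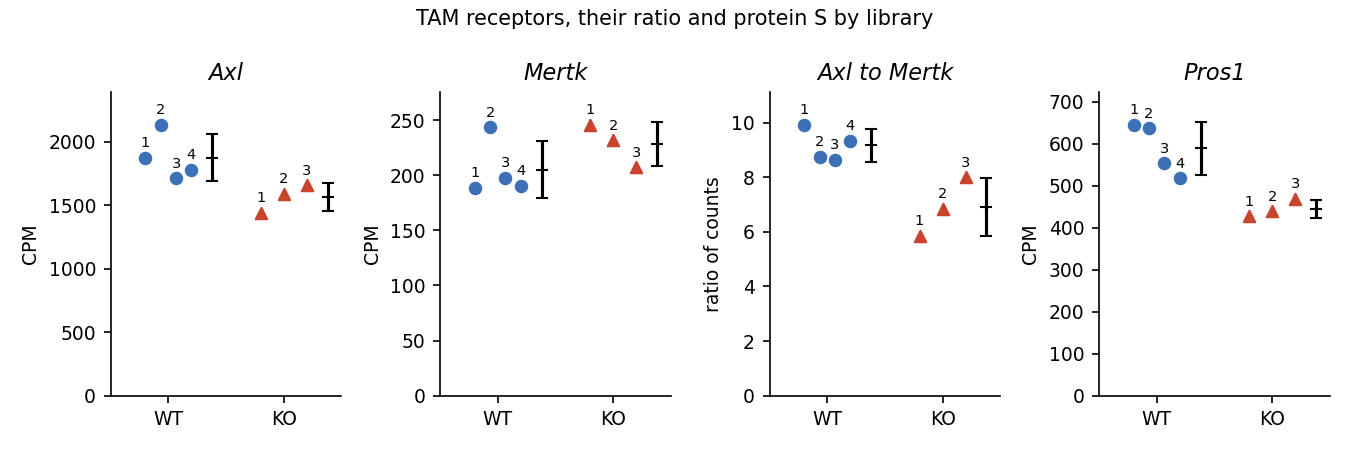
CPM of Axl, Mertk and Pros1 and the ratio of Axl to Mertk counts (vertical axes, starting at 0) in each WT (circles) and KO (triangles) library, numbered by replicate; the black mark and bar are the mean and SD. Axl, the ratio and Pros1 are lower in all 3 KO libraries than in all 4 WT libraries, while Mertk overlaps.

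Tyro3, the TAM receptor found mostly in the nervous system (chromosome 2, 119797733 to 119818104), was close to undetected. The WT libraries had 0, 4, 1 and 0 reads of it, in order of replicate, and the KO libraries 1, 1 and 0, 7 in all. A count of 0 allows up to 3 reads, or 0.0839 to 0.117 CPM in these libraries, and no difference between genotypes was detectable at this depth. The 3 receptors share little exact sequence: the longest run shared by their coding transcripts was 14 bases for each pair, such as gtgaagaccatgaa between Axl and Mertk.

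The 2 TAM ligands differed widely in level. Pros1, which encodes protein S, an anticoagulant that also activates Mertk and Tyro3 (chromosome 16, 62854307 to 62929346), stood at 646, 638, 554 and 517 CPM in WT 1 to WT 4. In KO 1 to KO 3 it stood at 427, 439.6 and 469 CPM. All KO libraries were below all WT libraries, and WT 4 was the nearest to KO. The means were 589 CPM ± 63.0 (SD, n = 4) and 445 CPM ± 21.9 (SD, n = 3), so that KO held 75.6% of the WT mean. The log2 fold change was -0.40 (SE 0.10); edgeR did not call it (adjusted p 0.109), while by DESeq2 Pros1 fell (adjusted p 0.00848). Over the 16 alternatives the adjusted p ranged from 0.00848 to 0.441, and it was below 0.05 in 2, DESeq2 and the fit without WT 4 and KO 3 (log2 fold change -0.50, adjusted p 0.0469). Without WT 4 alone it was -0.46 (adjusted p 0.0505). WT 4 was the lowest WT library and KO 3 the highest KO library, so leaving them out widens the difference.

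Gas6, the ligand that binds all 3 TAM receptors (chromosome 8, 13465374 to 13494490), had few reads. It had 8, 4, 4 and 29 reads in the WT libraries, in order of replicate. The KO libraries had 59, 40 and 2 reads. KO 1 and KO 2 were above all WT libraries and KO 3 below all of them, so that the genotypes overlapped. The means were 0.346 CPM ± 0.377 (SD, n = 4) and 1.19 CPM ± 0.988 (SD, n = 3). The log2 difference was 1.78 (SE 0.92), not called by edgeR (adjusted p 0.348) or DESeq2 (0.269). Gas6 passed the filter through WT 4, KO 1 and KO 2, and without WT 4 it was not tested. Without both WT 4 and KO 3, the highest WT and the lowest KO library, its log2 fold change was 3.42 (edgeR adjusted p 0.0132). In that fit Gas6 passed the filter only through KO 1 and KO 2, where it was high, so the value is no support for a difference. Over its 14 alternatives the adjusted p ranged from 0.0132 to 0.765. Gas6 made up 0.0157% to 0.454% of the reads of the 2 ligands in any library. An exon of Tmem255b overlaps Gas6 by 34 bases on the other strand, and Tmem255b had 0 to 2 reads per library. The longest run that the coding transcripts of Gas6 and Pros1 share was 12 bases.

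Mfge8, a secreted glycoprotein that bridges phosphatidylserine to the integrins αv with β3 or β5 (chromosome 7, 79133768 to 79149060), had the largest fold change of the 4 members whose genotypes did not overlap. It stood at 23.2, 14.3, 16.1 and 43.3 CPM in WT 1 to WT 4. In KO 1 to KO 3 it stood at 113, 43.9 and 52.3 CPM. The genotypes were separated by little, since WT 4 was close to KO 2, and KO 1 was far above the rest. The means were 24.2 CPM ± 13.3 (SD, n = 4) and 69.7 CPM ± 37.7 (SD, n = 3), a log2 fold change of 1.53 (SE 0.42) that was not called (adjusted p 0.129 by edgeR, 0.0783 by DESeq2). With no filter on low counts it passed by edgeR (adjusted p 0.0184). Without WT 4 it was 1.97 (edgeR adjusted p 0.0443), and without WT 4 and KO 3 it was 2.13 (0.0261). WT 4 was the WT library highest in Mfge8, so leaving it out widens the difference. The passes without WT 4 are therefore no support for a difference. Genes called over all rose from 11 to 284 without WT 4. Without KO 1 the log2 fold change was 0.99 (adjusted p 0.493). Over the 16 alternatives the adjusted p ranged from 0.00277 to 0.493.

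Mfge8 and Gas6 are also made by cells of the lung stroma, and markers of those cells were present at low levels. The 5 endothelial markers, all detected, summed to 0.954 to 3.66 CPM in WT and 4.34 to 9.54 CPM in KO, with Pecam1 the most abundant. By edgeR 0 of them were called. DESeq2 called Cdh5 (adjusted p 0.00662), Cldn5 (0.0151), Pecam1 (0.0392) and Tek (0.0431) higher in KO, but not Kdr (0.226). Over all genes DESeq2 called 2.68% higher. Reads were few, such as 6, 6, 1 and 3 of Cdh5 in WT 1 to WT 4. Cdh5 reached at most 0.188 CPM in any WT library. Like Stab1 below, it passed the edgeR filter on low counts only through KO libraries, where it is high. The Cdh5 call is therefore not read as a difference. The 5 fibroblast markers, of which 4 passed the filter, summed to 1.02 to 6.13 CPM in WT, highest in WT 4, and to 1.88 to 11.8 CPM in KO. Gas6 was highest in WT 4, KO 1 and KO 2, the libraries in which the fibroblast sum was also highest, and both were low in KO 3. This pattern was not particular to fibroblasts. Club cell markers summed to 13.5, 22.7 and 39.1 CPM in WT 4, KO 1 and KO 2 and to 4.45 CPM in KO 3. T cell markers summed to 4.01, 6.07, 3.30 and 1.95 CPM in the same libraries. The endothelial sum went otherwise, at 2.00 CPM in WT 4 and 4.34 CPM in KO 3. The 5 markers of type 2 alveolar epithelium, all detected, did not move one way. Epcam was lower in every KO library (mean 209 CPM in WT, 43.8 in KO), and it sets the list's sum of 163 to 339 CPM in WT and 102 to 121 CPM in KO. The other 4 had higher means in KO with overlap, such as Sftpc at 26.7 and 50.6 CPM and Sftpb at 0.823 and 1.65 CPM, and none of the 5 was called by edgeR or DESeq2. The part of these markers in the values of Mfge8 and Gas6 was not tested.

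**Figure D2:**
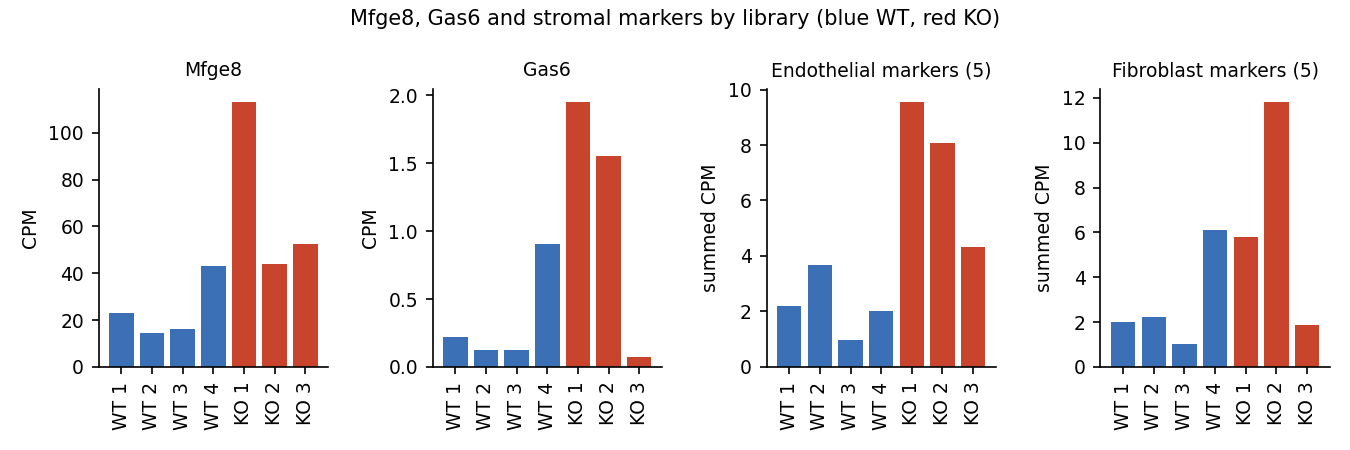
CPM of Mfge8 and Gas6 and the summed CPM of 5 endothelial and 5 fibroblast marker genes (vertical axes) in each library (WT blue, KO red). Mfge8 reaches 113 CPM in KO 1 against at most 43.3 in WT, and Gas6 stays below 2 CPM in every library.

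Anxa1, an annexin that binds phosphatidylserine on dying cells and limits inflammation through formyl peptide receptors (chromosome 19, 20373428 to 20390944), stood at 1549.9, 1455, 1588 and 1429.7 CPM in WT 1 to WT 4. In KO 1 to KO 3 it stood at 1397, 1337 and 1385 CPM. The KO libraries were all lower, by a small margin under WT 4. The means were 1506 CPM ± 75.6 (SD, n = 4) and 1373 CPM ± 31.8 (SD, n = 3), and the log2 difference of -0.13 (SE 0.08) was not called by edgeR (adjusted p 0.400) or DESeq2 (0.339).

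The remaining 3 genes overlapped between genotypes, and their log2 fold changes lay within 1 SE of 0. Lrp1, a large endocytic receptor that takes up calreticulin-coated dying cells (chromosome 10, 127538161 to 127621148), stood at 136, 166, 140.0 and 153 CPM in WT 1 to WT 4 and at 167, 109 and 177 CPM in KO 1 to KO 3, with a log2 fold change of 0.03 (SE 0.16). KO 2 was the lowest of the 7 libraries and KO 3 the highest. Elmo1, the scaffold that holds Dock1 at the membrane (chromosome 13, 20090596 to 20608353), stood at 75.9, 95.6, 79.2 and 62.6 CPM in WT and at 79.1, 81.4 and 70.7 CPM in KO, with a log2 fold change of -0.02 (SE 0.13). Its exons share 403 bases with the antisense gene Gm32036, and since the library kit does not mark strand, reads there cannot be assigned to one of them. Dock1, the exchange factor that activates Rac (chromosome 7, 134670654 to 135173639), stood at 11.0, 17.1, 13.8 and 13.3 CPM in WT and at 15.2, 9.71 and 17.6 CPM in KO, with a log2 fold change of 0.04 (SE 0.21). The edgeR adjusted p of these genes was 0.946 to 0.954, and their direction turned under some alternatives, as the plot of fold changes by way of processing shows.

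**Figure D3:**
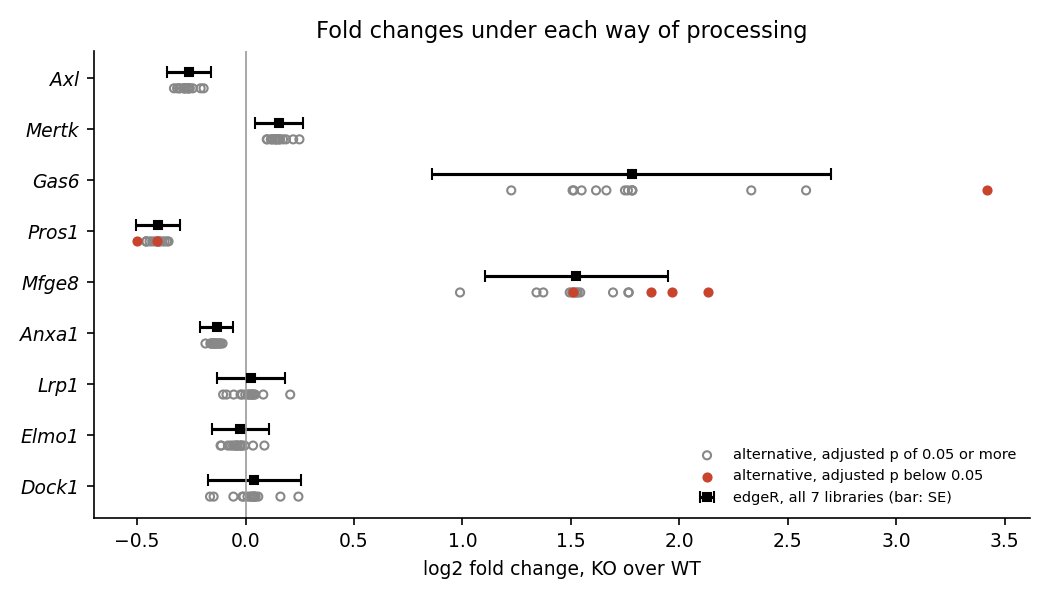
Log2 fold change (KO over WT, horizontal axis) of the 9 tested genes from all 7 libraries (black squares, bars are SE) and from each alternative (circles, filled red where the adjusted p was below 0.05; for Gas6 this is the fit it entered only through KO libraries). Axl, Pros1 and Anxa1 stay below 0 and Mertk, Gas6 and Mfge8 above 0 in every fit shown, while Lrp1, Elmo1 and Dock1 lie on both sides of 0.

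Levels of different genes were compared as CPM per kilobase of exon, with exon lengths from the basic transcript set of GENCODE M21. In WT the order was Anxa1 (795 CPM per kilobase ± 39.9, SD, n = 4), Axl (437 ± 43.3), Pros1 (178 ± 19.1), Mertk (47.7 ± 6.06), Elmo1 (12.6 ± 2.18), Mfge8 (11.4 ± 6.25), Lrp1 (9.11 ± 0.830), Dock1 (1.93 ± 0.356), Gas6 (0.136 ± 0.148) and Tyro3 (0.00812 ± 0.0122). Elmo1 and Mfge8 overlapped across WT libraries, as did Mfge8 and Lrp1, and every other pair of neighbours kept its order without overlap. In KO, Mfge8 moved up to 32.8 CPM per kilobase ± 17.7 (SD, n = 3) and stood between Mertk (53.1 ± 4.57) and Elmo1 (12.4 ± 0.899), overlapping only with Mertk. With exon lengths from the full annotation, Lrp1 came before Elmo1 and Mfge8 in WT, and the other genes kept their places. Per kilobase, Axl was 9.17 times as abundant as Mertk in WT and 6.87 times in KO.

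**Figure D4:**
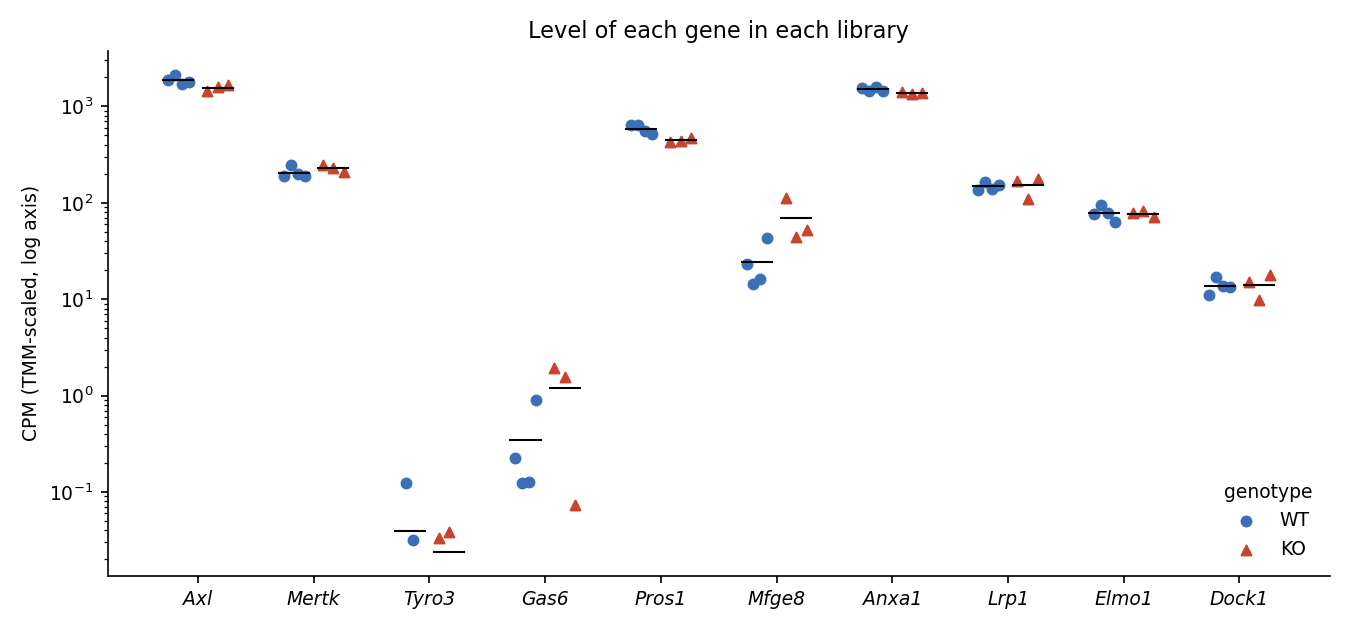
CPM (vertical axis, log scale) of the 10 genes in each WT (circles) and KO (triangles) library, with black lines for the means; libraries at 0 reads of Tyro3 are not drawn. Axl and Anxa1 lie at 1337 CPM or more, and Tyro3 and Gas6 below 2 CPM, in every library.

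Genes whose levels moved across the 7 libraries most like Axl were Ankrd27, Def8 and Atp2c1. Their log2 CPM, centred on each gene's mean, differed from those of Axl by 0.04 on average over the 7 libraries, where the median of the 8120 genes compared was 0.17. Most like Mertk were Rap1gds1, with a mean difference of 0.02, Gna13 (0.03) and Gphn (0.04), against a median of 0.18. Genes in libraries share depth and composition, so the likeness is only a description.

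Beyond the 10 genes, 109 other genes of apoptotic cell uptake were listed by role, of which 99 were tested. By edgeR 0 of the 99 were called (background 0.0862%) and 24 (24.2%) had an unadjusted p below 0.05, where 18.0% of all tested genes did. DESeq2 called 9 of 99 (9.09%, background 5.71%), with 3 higher and 6 lower in KO. Their genotypes did not overlap for 6 genes higher in KO (6.06%) and 13 lower (13.1%), against 7.23% and 8.72% of all tested genes. Stab1, described below, passed the filter only through the KO libraries, where it is high, and is counted in the 24 and in the 6. Their median log2 fold change was 0.02, beside 0.00 for all tested genes.

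Among the listed uptake receptors and integrins, the genes tested differed in direction. Itgb5, the β5 subunit of the integrin that Mfge8 binds, stood at 253, 289, 266 and 256 CPM in WT and at 202, 218 and 190.5 CPM in KO, with no overlap. Its log2 fold change was -0.39 (SE 0.09), not called by edgeR (adjusted p 0.0950) and lower by DESeq2 (adjusted p 0.00271). Stab1, a receptor that binds phosphatidylserine directly, had 7, 3, 3 and 1 reads in WT and 16, 11 and 9 in KO, at most 0.528 CPM. It passed the filter only through the KO libraries, where it is high, so its fold change is not read as a difference, and it is among the genes counted as higher in its list. Of the 16 other uptake receptors 10 were tested, 7 higher and 3 lower, with a median of 0.38; Timd4, Havcr1, Stab2, Adgrb1, Itgb3 and Megf10 had too few reads. Trem2, a lipid receptor named here after its values were seen, was higher by DESeq2 (adjusted p 0.0249) but overlapped, with KO 3 at 45.7 CPM and WT 4 at 56.1 CPM.

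Among the bridging molecules beside Mfge8 and Anxa1, 6 of 8 were tested and all 6 had a log2 fold change above 0, with a median of 0.56. That median lies between C1qc (0.46, SE 1.04) and C1qa (0.66, SE 1.21), from few reads. C1qa, C1qb, C1qc and Thbs1 averaged at most 1.74 CPM in either genotype. The abundant Calr and Lgals3 were at 0.11 (SE 0.09) and 0.17. None of them was called by edgeR or DESeq2, and 0 had an unadjusted p below 0.05. Thbs1, which links dying cells to CD36 and integrins, averaged 0.967 CPM in WT and 1.74 CPM in KO (log2 fold change 0.84, SE 0.41). Lgals3, a galectin reported as a Mertk ligand, averaged 3295 and 3708 CPM (0.17, SE 0.10), with overlap.

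In the engulfment machinery, the small GTPases Rhog and Rac1 did not overlap between genotypes, while Elmo1 and Dock1 did. The difference between these genes was not tested. Rhog, which recruits ELMO, stood at 213, 211, 223 and 211 CPM in WT and at 174, 187 and 185 CPM in KO, and Rac1, the target of DOCK1, at 1054 to 1105 CPM in WT and 935 to 961 CPM in KO. Neither overlapped, and their log2 fold changes were -0.24 (SE 0.07) and -0.20 (SE 0.07). Neither was called by edgeR (adjusted p 0.148 and 0.192), and both were lower by DESeq2 (0.0384 and 0.0482). Rac2 and Rhoa, other small GTPases of the list, overlapped (-0.03, SE 0.11, and -0.13, SE 0.08). Of the 16 tested genes of this list other than Elmo1 and Dock1, 6 were higher and 10 lower, with a median of -0.04. Genotypes did not overlap for 2 of the 16, both lower in KO, where 8.72% of all tested genes were lower without overlap.

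Among partners and brakes of TAM signalling, Socs3, a feedback inhibitor of cytokine receptors that TAM receptors can induce, stood at 16.8, 10.1, 10.3 and 18.6 CPM in WT and at 41.9, 52.1 and 33.1 CPM in KO. It was higher by DESeq2 (adjusted p 1.56e-08) and missed the edgeR threshold (log2 fold change 1.60, adjusted p 0.0561). Its adjusted p was below 0.05 in 8 of 16 alternatives, among them edgeR with the stricter filter (0.0476) and voom (0.0286), and reached 0.225. Without WT 4, its highest WT library, the log2 fold change was 1.77 (edgeR adjusted p 0.0247). Leaving WT 4 out widens the Socs3 difference. Akt1, a survival kinase downstream of TAM receptors, averaged 367 and 302 CPM without overlap (-0.28, SE 0.07), lower by DESeq2 (adjusted p 0.00847) and not called by edgeR (0.120). The proteases that shed TAM receptors from the surface had no call: Adam10 overlapped (log2 fold change -0.24, SE 0.13), and Adam17 overlapped too (0.037, SE 0.091, but -0.016 with library sizes only and -0.022 without KO 1). Of the "do not eat me" signals, Cd47 averaged 1357 and 1236 CPM (-0.13, SE 0.08), not called by either tool, and Pecam1, also an endothelial marker, 1.03 and 2.79 CPM (1.43, SE 0.46), higher by DESeq2 (0.0392).

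The annexins other than Anxa1 had 2 of 7 higher and 5 lower, with a median of -0.07. Anxa3 stood at 103, 103, 105 and 129 CPM in WT and at 72.7, 79.4 and 75.6 CPM in KO. Its log2 fold change was -0.53 (SE 0.10), not called by edgeR (adjusted p 0.0862) and lower by DESeq2 (0.000431); without WT 4 it was -0.45 and passed edgeR (0.0375). Anxa11 averaged 80.9 and 70.2 CPM without overlap (-0.20, SE 0.07, edgeR adjusted p 0.172). Lrp10, a relative of Lrp1, overlapped between genotypes (-0.19, SE 0.09, edgeR adjusted p 0.312).

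**Figure D5:**
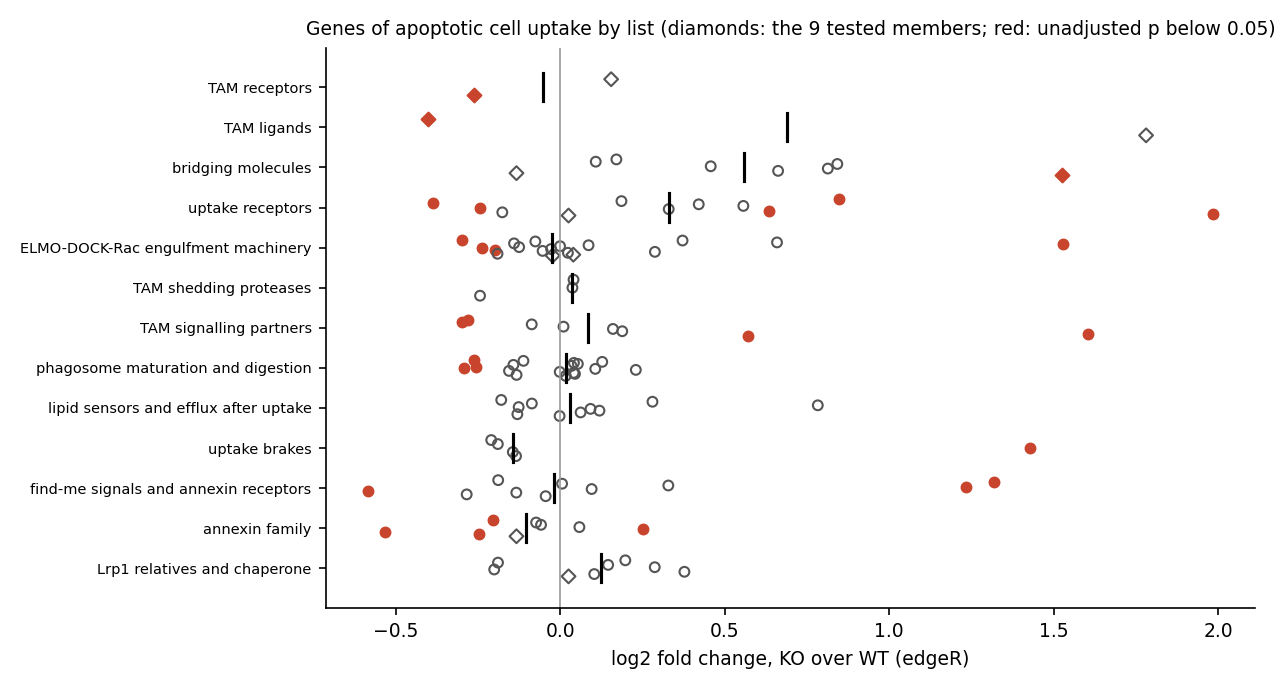
Log2 fold change (KO over WT by edgeR, horizontal axis) of each tested gene in 13 lists of apoptotic cell uptake (vertical axis); diamonds are the 9 tested members (Anxa1 and Lrp1 stand in more than 1 list), circles the others, red marks an unadjusted p below 0.05 and black bars are list medians. None of the points passed the adjusted threshold, and Socs3 came closest at 1.60.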

How the data were processed

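RNA of sorted alveolar macrophages was extracted from TRIzol LS, and libraries were made with Nextera XT, per the labels' protocols. That kit does not mark strand. For each of the 7 libraries the authors deposited whole-number read counts by gene symbol, without normalization. The submitters' processing notes name mm10 and DESeq2. Which annotation was counted, and how multimapping reads were treated, is not stated there. Of 27179 listed genes, 1036 without a symbol (0.376% to 0.424% of counts) were left out.

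Libraries were grouped by genotype. Counts were fitted in R 4.3.3 with edgeR 4.0.16 (filterByExpr, TMM factors, quasi-likelihood F test on genotype, 5 residual degrees of freedom), with Benjamini-Hochberg adjustment over all 12759 tested genes and a threshold of 0.05; the script was tested on simulated data. CPM use TMM-scaled library sizes, log2 CPM a prior count of 2, and fold changes are KO over WT. Ratios were tested with scipy 1.17.1. Libraries of a genotype differed beyond counting error (chi-square per gene 25.3 to 107), so none was counted as a repeat. The limit of 3 reads covers counting error only, since reads carry no molecular identifiers. The SD and SE values given include the spread between libraries.

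Alternatives were DESeq2 1.42.0, RLE or upper-quartile factors, library sizes only, no filter, a stricter filter (3 or more libraries at 5 CPM or above), limma 3.58.1 voom with library weights, a block for the replicate number, each library left out, and WT 4 and KO 3, whose columns come last in the table, left out together. The members, lists and alternatives were chosen with earlier results of these data known. Named genes were the 10 members, from each list any called gene and the 2 other genes with the smallest p, and the 3 genes of at least 10 CPM most like Axl and most like Mertk; Trem2 and the complement genes were named after their values were seen, and some genes the rule names are not reported here.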

Additional observations from a re-analysis of the deposited data

Results flagged for a closer look

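In 3 of the 33 sets of 4 WT values examined, 1 library stood apart from the other 3 by more than the 95% limit of Dixon's gap test, which chance alone passes in about 1 of 20 sets. Mertk was at 244 CPM in WT 2 and at 189 to 198 CPM in the other WT libraries, so that WT 2 was the only WT library within the KO range. Gas6 was at 0.907 CPM in WT 4 and at 0.125 to 0.224 CPM in the others, from 29 reads against 4 to 8. Anxa3 was at 129 CPM in WT 4 and at 103 to 105 CPM in the others, farther from the KO libraries than the rest of WT. The cause of these values was not tested.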

How the results depend on the processing

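Axl, Mertk and Anxa1 kept their direction and were not called in any of the 16 alternatives, and the log2 ratio of Axl to Mertk kept its direction in its 9 (-0.53 to -0.31 with 1 library left out). The number of genes called was 11 in the fit reported and rose to 753 with DESeq2, 397 with no filter, 21 with the stricter filter, 46 with voom, 430 with the replicate block and 590 without WT 4 and KO 3; it was 7 to 284 with 1 library left out, at its lowest without WT 1, 217 without KO 3 and at its highest without WT 4. Of the members, 1 was called with DESeq2 (Pros1, -0.41), 1 with no filter (Mfge8, 1.51), 1 with the replicate block (Mfge8, 1.87) and 3 without WT 4 and KO 3 (Pros1 -0.50, Mfge8 2.13 and Gas6 3.42, whose call is no support since it passed the filter there only through the KO libraries where it was high), and 0 to 1 with 1 library left out, where Mfge8 ranged from 0.99 to 1.97. Of the 108 tested pathway genes, members included, 0 were called in the fit reported, 10 with DESeq2, 5 with no filter, 1 with the stricter filter, 1 with voom, 5 with the replicate block, 8 without WT 4 and KO 3, and 0 to 3 with 1 library left out. Directions turned for Lrp1 (-0.023 with library sizes only, -0.088 without WT 4 and KO 3, and -0.10 to 0.21 with 1 library left out), Dock1 (-0.0093, -0.16, and -0.15 to 0.24 in the same fits), Elmo1 (-0.11 to 0.087 with 1 left out) and Adam17 (-0.016 with library sizes only, and -0.022 to 0.093 with 1 left out). The cause was not tested. For Mfge8 and Pros1, WT 4 was the WT library nearest to KO, so fits without WT 4 widen their differences and give no separate support. Same-numbered WT and KO libraries did not deviate together (correlations of -0.02 to 0.14 over 3 pairs, and in 0 of 3 was the own number the best match), so the numbers give no evidence of pairing. Replicate number 4 occurs only in WT, so the replicate block in effect compares the genotypes without WT 4. Without WT 4, Gas6 had too few reads to be tested, and with the stricter filter too. Tyro3 was limited by depth.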

Other observations

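The complement C1q genes, whose products coat dying cells and are typical of macrophages outside the airspace, were at or below 2.07 CPM and overlapped between genotypes. C1qb stood at 0, 0.0313, 0.0636 and 1.91 CPM in WT 1 to WT 4 and at 0.924, 0.0777 and 1.62 CPM in KO 1 to KO 3. C1qa and C1qc were likewise highest in WT 4, at 1.72 and 2.07 CPM, followed by KO 3 and KO 1. The 8 markers of interstitial macrophages or monocytes, which include C1qa, summed to 512 to 856 CPM in WT and 595 to 1110.3 CPM in KO, nearly all of it Cd14. 

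Lipid handling after uptake had no call. Of the 10 lipid sensors and efflux genes 5 were higher and 5 lower in KO (median log2 difference 0.03), and 0 had an unadjusted p below 0.05 by edgeR or a call by DESeq2. Abcg1, which exports cholesterol, averaged 1360 CPM ± 86.8 (SD, n = 4) across WT; KO averaged 1201 CPM ± 81.6 (SD, n = 3), with overlap. Among 17 genes of phagosome maturation, 9 were higher and 8 lower. Both LC3 genes measured were lower in KO, Map1lc3b at 511 and 428 CPM without overlap (-0.26, SE 0.09, edgeR adjusted p 0.178) and Map1lc3a at 69.0 and 56.3 CPM with overlap (-0.29, SE 0.10, edgeR adjusted p 0.180). Among receptors for signals that dying cells release, P2ry6, which senses UDP, stood at 65.9 to 81.8 CPM in WT and 39.1 to 60.0 CPM in KO. It was lower by DESeq2 (log2 fold change -0.59, adjusted p 0.00656) and not called by edgeR (-0.58, 0.107), though it passed in 4 of 16 alternatives, among them the edgeR fit without KO 3 (-0.75, 0.0352). KO 3 was the KO library nearest to WT in P2ry6, so leaving it out widens the difference. S1pr1 averaged 1.13 and 2.66 CPM, with overlap.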
